A study of Mus musculus with 8 samples.

Results

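Mouse embryonic stem (ES) cells that lacked both Pcgf3 and Pcgf5 were compared with what the cells lacking only one of them would predict. For every gene the interaction was taken, which is the log2 change of the double knockout against WT minus the sum of the log2 changes of the Pcgf3 and of the Pcgf5 knockout. It is 0 where the log2 changes add. Of the 47069 genes listed in the complete count tables, 2702 could be tested with all 8 libraries and 15669 with 7. An interaction was called for 187 of the 2702 genes and for 594 of the 15669. Genes were then sorted by where the double knockout lay: at the level of a single knockout, beyond both, or back at the WT level.

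The study measured poly-A RNA by sequencing in ES cells of mouse strain C57BL/6, in 4 groups of 2 libraries. The groups were Pcgf3/5 DKO cells, called DKO here, Pcgf3KO cells, Pcgf5KO cells and wild type cells, called WT. The 3 knockouts were made with Cas9. All groups were grown in serum with leukemia inhibitory factor on mouse fibroblasts that had been inactivated with mitomycin-C, so every library may hold some feeder RNA. The labels do not say whether a knockout is 1 clone, nor whether the libraries of a group came from separate cultures, so p-values measure the spread between these libraries, which may be technical.

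PCGF3 and PCGF5 are closely related RING finger proteins. Each can pair with RING1A or RING1B to form a variant of Polycomb repressive complex 1, which attaches ubiquitin to histone H2A. Polycomb complexes are known in ES cells for holding developmental genes silent. Since the proteins are alike, cells lacking both are the usual way to ask whether one covers for the loss of the other, and loss of the second gene can then change a gene's level more, less or not at all.

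The complete tables held 12652616 to 19923964 counts. The WT replicate 1 table broke off early and listed 8093 genes, 17.2% of the list. Unlisted genes were treated as not measured there. Levels are therefore on 2 scales: shared-gene CPM (counts scaled to 1000000 counts of the genes listed in all 8 tables, whose totals were 2254855 to 3558877) for genes tested with 8 libraries, and CPM over all genes for those tested with 7, where WT is replicate 2 alone and has no replicate check. The libraries of the DKO lay farther apart than those of the other groups. Their median absolute log2 ratio was 0.193 in CPM, against 0.0782 between the Pcgf3KO and 0.0714 between the Pcgf5KO libraries. In shared-gene CPM it was 0.228 between the DKO, 0.144 between the WT, 0.103 between the Pcgf3KO and 0.0993 between the Pcgf5KO libraries. The WT libraries thus lay farther apart than those of either single knockout, a spread that the 7-library test could not use. Among the ES cell markers the summed level was 2032 and 2348 CPM in DKO, 2491 and 2618 CPM in Pcgf3KO, 2585 and 2626 CPM in Pcgf5KO and 2169.7 CPM in WT, and none of the 7 was at 0.

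The targeted transcripts were still counted in every library. Pcgf3 had 86.6 and 67.2 CPM in DKO, 66.1 and 60.5 CPM in Pcgf3KO, 92.3 and 94.1 CPM in Pcgf5KO and 109.7 CPM in WT. Pcgf5 had 13.5 and 13.9 CPM in DKO, 17.3 and 17.4 CPM in Pcgf3KO, 12.3 and 9.06 CPM in Pcgf5KO and 20.7 CPM in WT. Each gene fell in its own knockout. The log2 change of Pcgf3 was -0.79 (adjusted p = 0.021) and that of Pcgf5 -0.94 (adjusted p = 0.0292, edgeR's quasi-likelihood test with Benjamini-Hochberg adjustment, as for every adjusted p below). In DKO neither passed the test, with log2 changes of -0.51 (adjusted p = 0.0899) and -0.60 (adjusted p = 0.114). Gene-level counts cannot show the edit itself, so the group labels are taken as given. The other family members Pcgf1, Pcgf2, Bmi1 (Pcgf4) and Pcgf6 had interactions of -0.02, -0.14, 0.15 and -0.29, none called (adjusted p = 0.372 to 0.977).

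Among the genes called in the interaction, the change of the double knockout was mostly smaller than the sum of the single changes. In many of them it was smaller than either. With 8 libraries the interaction was called positive for 95 genes (3.52% of those tested) and negative for 92 (3.4%), 187 in all (6.92%). With 7 libraries it was called positive for 278 genes (1.77%) and negative for 316 (2.02%), 594 in all (3.79%). All 187 called genes of the 8-library test had an interaction opposite in sign to both single changes, as did 579 of the 594 genes of the 7-library test. The same held for 66.5% and 68.3% of all genes tested. Part of this is arithmetic, because both single changes enter the interaction with a minus sign and share the WT libraries, so an error in WT moves all 3 changes one way and the interaction the other. A gene in which WT differs from all edited cells cannot be told apart from one in which the second loss adds nothing.

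The sizes were as follows, for called genes only. The calls rest on the same fitted changes, and the matching shares over all genes tested were not taken, so these counts are a description. Genes with a positive call in the 8-library test had a median change against WT of -0.18 in DKO, -0.50 in Pcgf3KO and -0.62 in Pcgf5KO, and those with a negative call 0.21 in DKO, 0.46 in Pcgf3KO and 0.51 in Pcgf5KO. In 58 of the 95 and 51 of the 92 the DKO change had the sign of the singles but was smaller than both. In another 28 and 29 the DKO lay on the other side of WT from both single knockouts. In 8 and 9 genes it lay between the singles, and in 1 and 3 it was the largest of the 3. The 7-library test gave 175 of 278 and 177 of 316 genes with a DKO change smaller than both, and 67 and 99 on the other side of WT. The 92 and 316 negative calls kept their sign when the DKO was compared with the sum of the single changes in CPM instead of log2 CPM. A positive call in a gene that was lower in both single knockouts keeps its sign there by arithmetic. Of the 103 genes called with 7 libraries that 8 libraries could also test, 95 were called there in the same direction. Of the 187 genes called with 8 libraries, all tested with 7 as well, these 95 were called with 7. The tests share 7 libraries, so neither count is independent support.

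**Figure D1:**
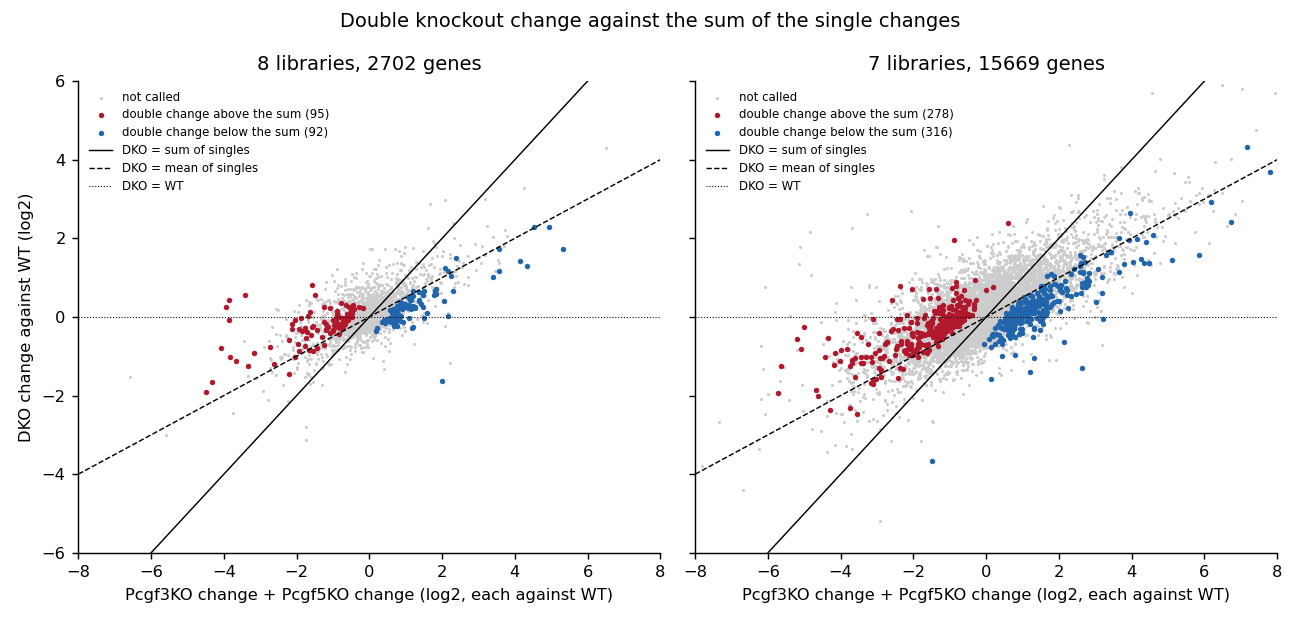
Each point is a gene, with the sum of the Pcgf3KO and Pcgf5KO log2 changes on the horizontal axis and the DKO log2 change on the vertical axis, all against WT; the left panel has 2702 genes from 8 libraries and the right panel 15669 genes from 7. The called genes (red positive, blue negative interaction, 187 and 594 in all) lie off the solid line where the changes would add, mostly between the broken line at the mean of the single changes and the dotted line at WT, or beyond the dotted line.

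Among the genes that were higher in the knockouts, the named examples had a DKO level several fold below the additive one. Ptprtos, a non-coding transcript on the strand opposite to the phosphatase gene Ptprt, had 47.7 and 57.3 shared-gene CPM in DKO, 97.9 and 91.3 in Pcgf3KO, 69.4 and 75.6 in Pcgf5KO, beside 20.3 and 18.9 in WT. The DKO libraries lay above WT and below all 4 single knockout libraries, where adding log2 changes would have put them at 349.62. The interaction was -2.73 ± 0.22 (log2, standard error; adjusted p = 0.000202), the smallest adjusted p of the genes named here. Lemd1, which encodes a LEM domain protein, had 75.7 and 56.7 shared-gene CPM in DKO, 108 and 103 in Pcgf3KO, 52.5 and 55.2 in Pcgf5KO, beside 11.7 and 15.4 in WT. The DKO lay just above Pcgf5KO and below Pcgf3KO, against an additive level of 419.06, with an interaction of -2.67 ± 0.27 (adjusted p = 0.000483). D1Pas1, a DEAD-box helicase gene known from the testis, had 103 and 77.4 shared-gene CPM in DKO, 90.3 and 89.7 in Pcgf3KO, 97.6 and 96.4 in Pcgf5KO, beside 25.4 and 28.9 in WT. The range of the DKO spanned both single knockouts, and all knockout libraries lay above WT; the additive level was 321.36 and the interaction -1.83 ± 0.23 (adjusted p = 0.00168). D1Pas1 is an intronless copy of Ddx3x, and the counting could have split reads between them.

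Further genes of this kind showed the same order. The transcripts C78283 and Apol6, an apolipoprotein L gene, had interactions of -3.02 ± 0.31 (adjusted p = 0.000483) and -3.59 ± 0.54 (adjusted p = 0.0035), from DKO levels of 34 and 24.3 and of 8.04 and 6.15 shared-gene CPM. Both DKO libraries were below all single knockout libraries in each gene. Dnmt3l, the partner protein of the de novo DNA methyltransferases, had 484 and 501 CPM in DKO, 642 and 695 CPM in Pcgf3KO, 564 and 559 CPM in Pcgf5KO and 212 CPM in WT. The DKO was again above WT and below every single knockout library, with an interaction of -1.84 ± 0.11 (adjusted p = 0.000523) and an additive level of 1768.60 CPM. The ETS factor gene Etv5, a target of FGF signalling, was an abundant example, with 3786 and 3735 shared-gene CPM in DKO, 4103 and 4116 in Pcgf3KO, 4771 and 4883 in Pcgf5KO, beside 2753 and 2833 in WT. Its groups did not overlap, and its interaction was -0.92 ± 0.09 (adjusted p = 0.000483). Sept1, a septin gene, had 122 and 174 CPM in DKO, 228 and 238 CPM in Pcgf3KO, 199 and 204 CPM in Pcgf5KO and 58.1 CPM in WT, with an interaction of -2.44 ± 0.23 (adjusted p = 0.00179). Maml2, a Notch co-activator gene, and Myo1g, a myosin gene, had interactions of -3.66 ± 0.40 (adjusted p = 0.00293) and -2.97 ± 0.32 (adjusted p = 0.00292) at DKO levels of 2.37 to 5.34 CPM.

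**Figure D2:**
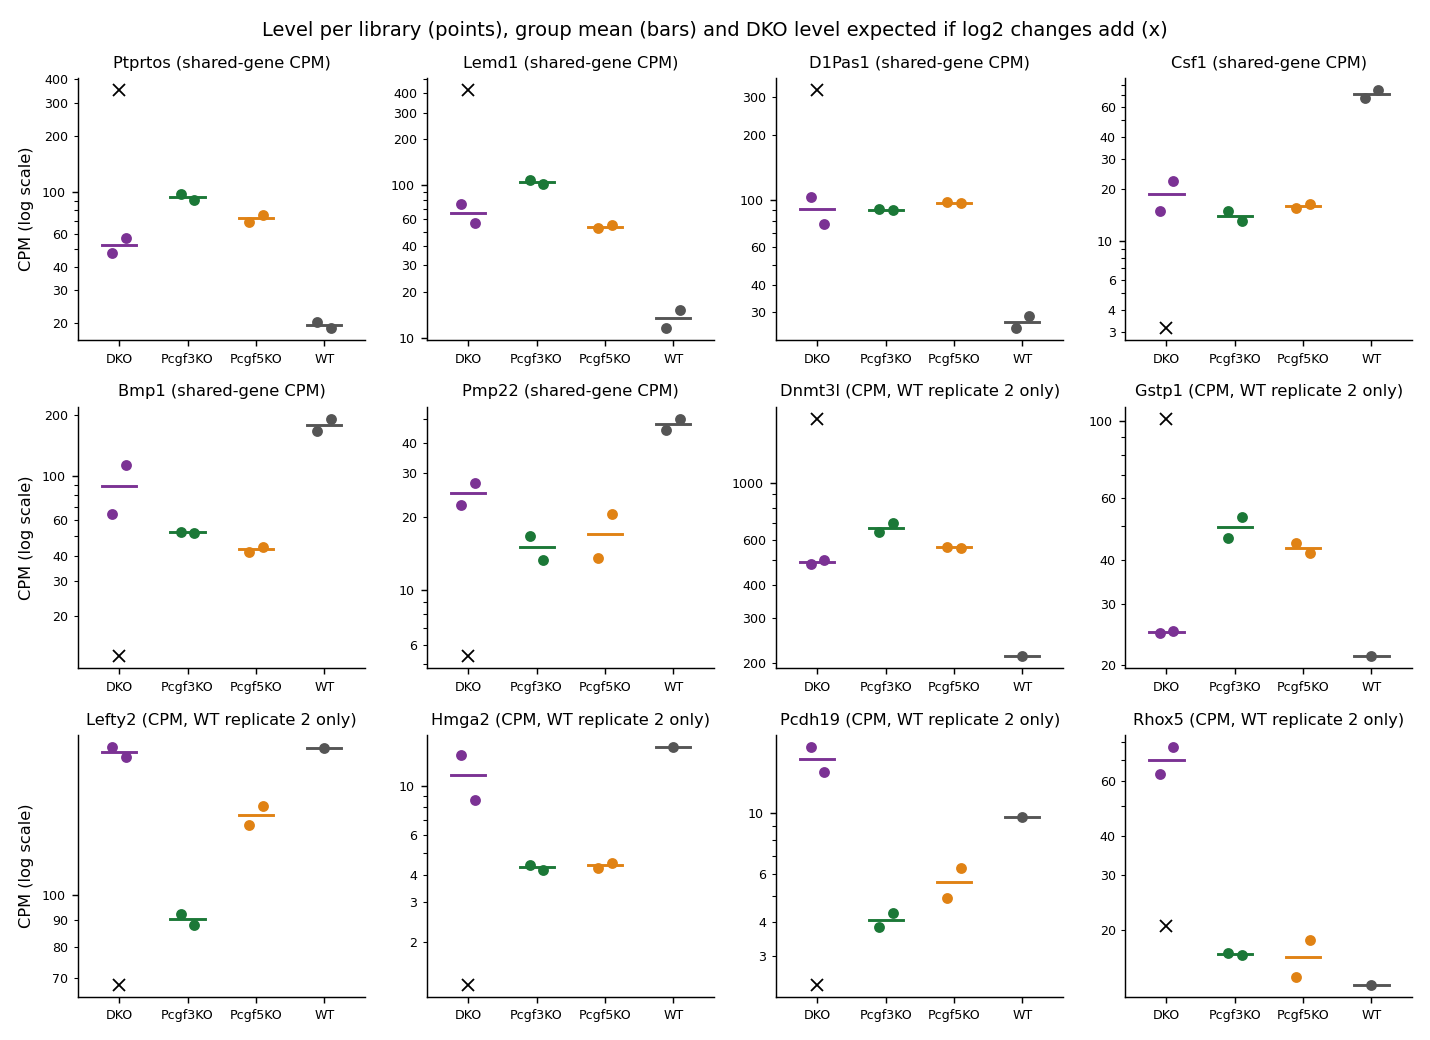
Level of 12 genes in each library on a log axis (points), with group means (bars) and the DKO level expected if the single log2 changes add (cross), in shared-gene CPM for 8 libraries or in CPM for the 7 without WT replicate 1. In Ptprtos, Lemd1 and D1Pas1 the DKO lies far below the cross, in Csf1, Bmp1 and Pmp22 far above it, and in Rhox5 beyond all other groups.

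Genes that were lower in the knockouts gave the mirror image. Bmp1, a protease that processes procollagen, had 64.4 and 113 shared-gene CPM in DKO, 52.2 and 52.1 in Pcgf3KO, 41.8 and 44.3 in Pcgf5KO, beside 166 and 192 in WT. Both DKO libraries lay between the single knockouts and WT, though far apart, and the additive level was 12.58. The interaction was 2.82 ± 0.31 (adjusted p = 0.000882), and 3.15 without DKO replicate 1 or 2.36 without DKO replicate 2. Csf1, the macrophage growth factor, had 14.9 and 22.4 shared-gene CPM in DKO, 15 and 13 in Pcgf3KO, 15.6 and 16.3 in Pcgf5KO, beside 67.4 and 74.5 in WT. The range of the DKO overlapped both single knockouts, far below WT, with an interaction of 2.57 ± 0.33 (adjusted p = 0.00203). Pmp22, a myelin and membrane protein gene, had 22.3 and 27.4 shared-gene CPM in DKO, 16.7 and 13.3 in Pcgf3KO, 13.6 and 20.4 in Pcgf5KO, beside 44.9 and 50.1 in WT. Both DKO libraries lay between the single knockouts and WT, with an interaction of 2.23 ± 0.34 (adjusted p = 0.00367). Cald1, an actin-binding protein gene, showed it with little scatter: 518 and 487 shared-gene CPM in DKO, 538 and 513 in Pcgf3KO, 476 and 491 in Pcgf5KO, beside 863 and 924 in WT. Its interaction was 0.82 ± 0.11 (adjusted p = 0.00284), and the 95% interval of the DKO minus Pcgf3KO difference ran from -0.24 to 0.11.

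The same pattern was seen for genes outside the WT replicate 1 table. The collagen IV genes Col4a1 and Col4a2, whose products form one basement membrane trimer and which lie head to head on chromosome 8, had 93.9 and 119.6 CPM and 37.8 and 57.8 CPM in DKO. In Pcgf3KO they had 68.4 and 65.8 CPM and 33.8 and 30.8 CPM, in Pcgf5KO 70.6 and 72.5 CPM and 29.3 and 31.3 CPM, and in WT 200.4 and 114 CPM. All DKO values lay between the single knockouts and WT, with interactions of 2.16 ± 0.17 (adjusted p = 0.00108) for Col4a1 and 2.48 ± 0.26 (adjusted p = 0.00292) for Col4a2. Igf2, the imprinted insulin-like growth factor gene, had 95 and 157 CPM in DKO, 78.6 and 83.9 CPM in Pcgf3KO, 67 and 69.8 CPM in Pcgf5KO and 268 CPM in WT, with an interaction of 2.60 ± 0.29 (adjusted p = 0.0031). The kit used does not mark strand, so reads of Ptprtos, Igf2, Col4a1 and of overlapping genes on the other strand cannot be told apart.

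When the 386 genes called in any knockout against WT with 8 libraries were sorted, 95 (24.6%) had a DKO level within 0.5 log2 of both single knockouts while differing from WT by at least 0.5. A further 28 lay within 0.5 of Pcgf3KO only and 28 within 0.5 of Pcgf5KO only. In 43 (11.1%) the DKO lay beyond both singles by at least 0.5, and in 10 (2.59%) it was back within 0.5 of WT although a single knockout had moved by at least 1. The remaining 182 had mostly small changes: in 173 of them the DKO was within 0.5 of WT and no single reached 1. Of the 818 genes sorted with 7 libraries, 292 (35.7%) matched both singles, 73 Pcgf3KO only and 79 Pcgf5KO only, 101 (12.3%) exceeded both, 21 (2.57%) returned to WT and 252 fell in no class. Against WT, 219 genes (8.11%) were called in DKO, 149 (5.51%) in Pcgf3KO and 233 (8.62%) in Pcgf5KO with 8 libraries, and 505 (3.22%), 370 (2.36%) and 468 (2.99%) with 7.

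An interaction was called for 7 of the 10 genes back at WT, 29 of the 95 at both singles and 5 of the 43 beyond both, beside 6.92% of all genes tested. With 7 libraries these were 18 of 21, 94 of 292 and 16 of 101, beside 3.79%. The classes were cut from the same fitted changes that make up the interaction, so the sorting itself sets much of these counts and nothing is read from them. The classes rest on fitted values, not on a test of equality. A gene was counted where the 95% interval of DKO minus Pcgf3KO or of DKO minus Pcgf5KO lay wholly within 1 log2. This held for 90 of the 95 and 288 of the 292 genes matching both, beside 169 of 182 and 222 of 252 in no class. The genes were sorted on these same differences, so the counts are a description and not support for equality.

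**Figure D3:**
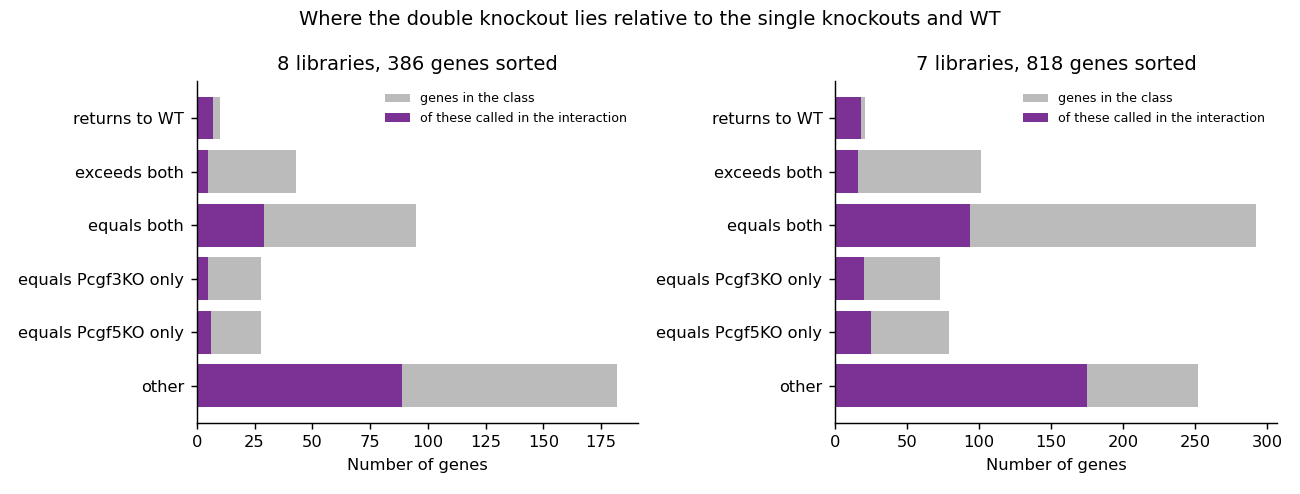
Number of genes (horizontal axis) in each class of the double knockout, among 386 genes sorted with 8 libraries (left) and 818 with 7 (right); purple is the number called in the interaction. The bar of genes matching both single knockouts is the longest of the named classes (95 and 292 genes), and that of genes back at WT the shortest (10 and 21).

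A return to WT was seen in a glutathione S-transferase gene and in a Nodal antagonist. Gstp1, a detoxifying enzyme gene, had 24.7 and 25 CPM in DKO, 46.2 and 52.9 CPM in Pcgf3KO, 44.7 and 41.8 CPM in Pcgf5KO and 21.2 CPM in WT. The DKO was below all single knockout libraries and 0.23 log2 from WT (95% interval -0.07 to 0.53). Its difference from Pcgf3KO had a 95% interval of -1.23 to -0.76 (adjusted p = 0.00328) and that from Pcgf5KO one of -1.04 to -0.57 (adjusted p = 0.0128), and the interaction was -2.03 ± 0.17 (adjusted p = 0.00128). Its neighbour Gstp2, a close copy, had 4.95 and 3.9 CPM in DKO, 13.5 and 15.4 CPM in Pcgf3KO, 9 and 8.73 CPM in Pcgf5KO and 1.48 CPM in WT. The DKO again lay between WT and the single knockouts, with an interaction of -4.28 ± 0.32 (adjusted p = 0.000845), the most negative of the genes named. The counting could have split reads between these copies, so their values are not independent. To show how alike the pair is at its starts, the 250 bases before the RefSeq start of each gene follow (RefSeq, GRCm38.p6, minus strand, chr19:4037913-4038162 and chr19:4042222-4042471, 5′ to 3′), with matches to TGANTCA, searched on both strands, in capitals.
Gstp1: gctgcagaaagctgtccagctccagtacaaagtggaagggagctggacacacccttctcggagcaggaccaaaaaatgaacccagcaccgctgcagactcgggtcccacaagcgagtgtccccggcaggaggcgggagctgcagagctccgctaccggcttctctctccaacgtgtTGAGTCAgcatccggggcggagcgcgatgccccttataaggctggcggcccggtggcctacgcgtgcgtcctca
Gstp2: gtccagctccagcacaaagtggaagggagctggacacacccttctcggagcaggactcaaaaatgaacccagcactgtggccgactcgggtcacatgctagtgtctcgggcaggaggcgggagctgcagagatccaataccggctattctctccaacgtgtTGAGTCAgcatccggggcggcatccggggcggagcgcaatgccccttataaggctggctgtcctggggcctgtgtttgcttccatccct
The windows lie 4309 bases apart from start to start and align with 78.5% identity over 265 columns. Each holds 1 match to TGANTCA, the letters of the AP-1 consensus, as do 6.75% of 32817 RefSeq windows of this length. The match is a description and not a measured binding site.

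Lefty2, a secreted antagonist of Nodal, had 189 and 181 CPM in DKO, 92.4 and 88.1 CPM in Pcgf3KO, 135 and 147 CPM in Pcgf5KO and 188 CPM in WT. Every DKO and WT value lay above every single knockout value. Lefty2 was 1.04 log2 higher in DKO than in Pcgf3KO (adjusted p = 0.000927) and 0.39 higher than in Pcgf5KO (adjusted p = 0.0424), and its interaction was 1.45 ± 0.12 (adjusted p = 0.00128). Hmga2, a chromatin architectural protein gene, had 13.7 and 8.6 CPM in DKO, 4.43 and 4.19 CPM in Pcgf3KO, 4.26 and 4.53 CPM in Pcgf5KO and 14.9 CPM in WT. The DKO libraries lay apart but both above the single knockouts, with an interaction of 3.12 ± 0.35 (adjusted p = 0.0033). Sfmbt2, an imprinted gene of a Polycomb-related protein, met the rule through Pcgf5KO: it had 563 and 456 shared-gene CPM in DKO, 472 and 468 in Pcgf3KO, 349 and 342 in Pcgf5KO, beside 759.7 and 640.4 in WT. Its DKO level overlapped Pcgf3KO and lay below WT, where the fall was called (log2 change -0.46, adjusted p = 0.0293), so a return within 0.5 log2 was not a full one. Its interaction was 1.14 ± 0.16 (adjusted p = 0.00284).

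Some genes followed one single knockout. Platr13, a non-coding transcript found in ES cells, had 50.1 and 49.5 shared-gene CPM in DKO, 2.84 and 3.79 in Pcgf3KO, 39.2 and 50.2 in Pcgf5KO, beside 6.57 and 7.07 in WT. The DKO and Pcgf5KO overlapped far above WT and Pcgf3KO. The DKO differed from Pcgf3KO by 3.90 log2 (adjusted p = 2.91e-05) and from Pcgf5KO by 0.16 (95% interval -0.25 to 0.58), and the interaction of 1.20 ± 0.39 was not called (adjusted p = 0.084), although it was without DKO replicate 2 (1.22, adjusted p = 0.0432). Efhc2, an EF-hand protein gene on chromosome X, was the counterpart for Pcgf3KO, with 2.27 and 2.17 CPM in DKO, 2.42 and 2.13 CPM in Pcgf3KO, 15.7 and 12.4 CPM in Pcgf5KO and 21.6 CPM in WT. The DKO overlapped Pcgf3KO (difference -0.04, 95% interval -0.55 to 0.47) and was 2.66 log2 below Pcgf5KO (adjusted p = 0.000702). Its interaction was 0.58 ± 0.30 (adjusted p = 0.271), so neither Platr13 nor Efhc2 had a called one with all libraries. Upp1, uridine phosphorylase, lay with Pcgf5KO at 311 and 312 CPM in DKO, 215 and 221 CPM in Pcgf3KO, 354 and 334 CPM in Pcgf5KO and 147 CPM in WT. Its interaction of -0.71 was called, but lost the call when any Pcgf3KO or Pcgf5KO library was left out. Ranbp17, a nuclear transport receptor gene, had 305 and 265 shared-gene CPM in DKO, 409 and 404 in Pcgf3KO, 257 and 254 in Pcgf5KO, beside 199 and 187 in WT. Its DKO was below Pcgf3KO (difference -0.51, adjusted p = 0.0394) and 0.16 log2 above Pcgf5KO (95% interval -0.05 to 0.37, adjusted p = 0.327), with an interaction of -0.92 ± 0.13 (adjusted p = 0.00337).

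Krt8, a keratin of simple epithelia, was among the genes in which the DKO lay beyond both singles. It had 69.8 and 115 CPM in DKO, 178 and 198 CPM in Pcgf3KO, 153 and 154 CPM in Pcgf5KO and 418 CPM in WT, against an additive level of 69.04 CPM. Its interaction was 0.42 (95% interval -0.21 to 1.06, adjusted p = 0.397). The DKO libraries decided this value: it was 0.74 and called without DKO replicate 1 (adjusted p = 6.03e-09), and 0.02 without DKO replicate 2 (adjusted p = 0.913).

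Rhox5 went the other way. This homeobox gene on chromosome X, known to be held low by DNA methylation in many cells, had 63.3 and 77.2 CPM in DKO, 16.9 and 16.6 CPM in Pcgf3KO, 14.1 and 18.5 CPM in Pcgf5KO and 13.3 CPM in WT. The DKO stood alone above the other 3 groups, with rises of 2.40 log2 over WT (adjusted p = 0.000578), 2.07 over Pcgf3KO (adjusted p = 0.000541) and 2.12 over Pcgf5KO (adjusted p = 0.000702). Neither single change was called (0.33, adjusted p = 0.453, and 0.28, adjusted p = 0.463), and the interaction was 1.78 ± 0.24 (adjusted p = 0.00783). It was no longer called without Pcgf3KO replicate 1 (adjusted p = 0.0537), Pcgf3KO replicate 2 (0.0657) or Pcgf5KO replicate 1 (0.0541).

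Acta2, smooth muscle actin, was lowest in DKO, at 0.685 and 1.04 CPM in DKO, 5.69 and 4.92 CPM in Pcgf3KO, 7.87 and 8.73 CPM in Pcgf5KO and 11.1 CPM in WT. The fall against WT was called in DKO (log2 change -3.67, adjusted p = 0.000563) and in Pcgf3KO (-1.06, adjusted p = 0.0411), and the Pcgf5KO change was -0.42 (adjusted p = 0.328). Its interaction was -2.19 ± 0.34 (adjusted p = 0.0111), with adjusted p of 0.0766, 0.0709, 0.0748 and 0.0825 without Pcgf3KO replicate 1, Pcgf3KO replicate 2, Pcgf5KO replicate 1 and Pcgf5KO replicate 2. Acta2 is also a feeder marker. The 20 feeder markers summed to 2012 and 1944 CPM in DKO, 1728 and 1778 CPM in Pcgf3KO, 1994 and 2056 CPM in Pcgf5KO and 2185 CPM in WT, with 1 or 2 of them at 0 in each library, S100a4 in all 7. Most of the sum was Fn1 and Sparc, so it says little about the others. Vim had 84.2 and 86.3 CPM in DKO, 53 and 54.6 in Pcgf3KO, 87.8 and 86.1 in Pcgf5KO and 95.4 in WT. Col1a1 had 5.32 and 6.92 CPM in DKO, 5.19 and 6.6 in Pcgf3KO, 7.34 and 7.93 in Pcgf5KO and 16.2 in WT. WT was also the highest library for Tagln (17 to 51.2 CPM over the 7 libraries) and Mmp2 (20.2 to 35.9). Thy1 (12.6 to 33.3) was highest in DKO. Col3a1, Postn and Lum had 0 to 1.14 CPM. In bulk RNA, fewer cells of a type and less RNA per cell cannot be told apart, and the part of feeder cells in these results was not tested.

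In some genes the second loss went with a change opposite to that of the first. With 7 libraries the DKO differed from Pcgf3KO in 272 genes (1.74%) and from Pcgf5KO in 357 (2.28%), and from both in 127, higher than both in 51 and lower in 76. With 8 libraries these counts were 14 (0.518%), 64 (2.37%) and 8, of which 3 were higher and 5 lower. Loss of Pcgf3 had a called effect in both backgrounds, against WT and in Pcgf5KO cells, for 52 genes, and in 35 of them the effects were opposite. Loss of Pcgf5 had called effects in both backgrounds for 50 genes, opposite in 26. The 4 groups supply each of these pairs without a shared library, but the genes were picked by the test in both. The share of opposite effects over all genes tested was not taken, so the counts are a description. These counts moved widely when 1 library was left out: the DKO against Pcgf5KO count ran from 3 without Pcgf5KO replicate 1 to 6593 without DKO replicate 2.

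Pcdh19, a cell adhesion gene on chromosome X, had 17.4 and 14.1 CPM in DKO, 3.83 and 4.31 CPM in Pcgf3KO, 4.91 and 6.31 CPM in Pcgf5KO and 9.68 CPM in WT. The DKO was the highest group and both singles lay below WT. It was 1.95 log2 higher in DKO than in Pcgf3KO (adjusted p = 0.00313) and 1.50 higher than in Pcgf5KO (adjusted p = 0.0112), with an interaction of 2.75 ± 0.29 (adjusted p = 0.00292). Dcaf12l1, also on chromosome X, had 22.7 and 24.5 CPM in DKO, 14.7 and 14.1 CPM in Pcgf3KO, 14.8 and 14.6 CPM in Pcgf5KO and 47.9 CPM in WT. Here the DKO stood midway, above all single knockout libraries and below WT, with an interaction of 2.42 ± 0.17 (adjusted p = 0.000524). Krt42, a keratin gene, had 36 and 37.9 CPM in DKO, 64.6 and 66.8 CPM in Pcgf3KO, 45.3 and 48 CPM in Pcgf5KO and 18.3 CPM in WT, with an interaction of -2.18 ± 0.15 (adjusted p = 0.000524). In each of these 3 genes the DKO overlapped no other group.

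Gene lists were read in the 7-library test, by counts of called members and the median interaction, beside a median of 0.01 over all genes and 1.77% called positive and 2.02% negative. Among 24 naive and core pluripotency genes, 6 were called negative and 2 positive, with a median interaction of -0.41. The negative ones were Nr0b1, Dppa5a, Sall4, Nr5a2, Dppa3 and Pou5f1, and the positive ones Tfcp2l1 and Tbx3. Of these, Dppa3 and Tbx3 lost the call when any Pcgf3KO or Pcgf5KO library was left out. Dppa5a, an RNA-binding protein of the early embryo, had 469.5 and 549.6 CPM in DKO, 644 and 699 CPM in Pcgf3KO, 689.8 and 727 CPM in Pcgf5KO and 402 CPM in WT. The DKO lay between WT and all single knockout libraries, with an interaction of -1.22 ± 0.14 (adjusted p = 0.00396). The summed ES cell markers, given above, were lower in DKO than in either single knockout. All of these markers are members of this list, so their sum is not separate support. Not every marker followed the sum: Sox2 had 409 and 410.1 CPM in DKO against 376 and 379 CPM in Pcgf5KO. The part of the ES cell markers in other results was not tested. Glycolysis genes leaned the same way, with 6 of 20 negative (Aldoa, Eno1, Slc2a1, Eno3, Tpi1 and Pfkl), 1 positive (Pgk1, on chromosome X) and a median of -0.40. Tpi1 and Pgk1 also lost the call without any Pcgf3KO or Pcgf5KO library. The median changes against WT were small: 0.15 in DKO, 0.21 in Pcgf3KO and 0.35 in Pcgf5KO for pluripotency, and 0.15 in DKO, 0.20 in Pcgf3KO and 0.34 in Pcgf5KO for glycolysis.

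Other lists leaned to the positive side, where single losses lowered the genes and the DKO less than their sum. For all lists WT was replicate 2 alone, and every interaction in a list used that library. A lean of a list therefore cannot be told apart from a difference of that WT library. Of 22 p53 targets, 8 were called positive (Trp53inp1, Pmaip1, Btg2, Plk2, Perp, Eda2r, Ccng1 and Mdm2) and 0 negative, with a median of 0.51. Pmaip1, the pro-apoptotic NOXA gene, had 109.7 and 107 CPM in DKO, 61.5 and 65.3 CPM in Pcgf3KO, 72.9 and 78.2 CPM in Pcgf5KO and 121 CPM in WT. The DKO was near WT and above all single knockout libraries, with an interaction of 1.45 ± 0.13 (adjusted p = 0.00128). Plk2, a stress-responsive kinase gene, had 41.7 and 49.1 CPM in DKO, 31.3 and 35.6 CPM in Pcgf3KO, 35.4 and 36.1 CPM in Pcgf5KO and 91 CPM in WT, with an interaction of 1.79 ± 0.17 (adjusted p = 0.00183). Of 17 YAP targets, 9 were positive (Ptpn14, Amotl2, Ccn1, Myof, Axl, Nt5e, Thbs1, Crim1 and Lats2) and 0 negative, with a median of 0.76. Of these, Axl, Myof and Thbs1 lost the call when any Pcgf3KO or Pcgf5KO library was left out. The YAP list had median changes against WT of -0.70 in DKO, -0.94 in Pcgf3KO and -0.83 in Pcgf5KO. Ccn1, a matricellular protein gene, had 41.9 and 55.6 CPM in DKO, 55.2 and 58.9 CPM in Pcgf3KO, 51.9 and 49 CPM in Pcgf5KO and 159 CPM in WT. All knockouts were far below WT, and the DKO overlapped both singles. The interaction of Ccn1 was 1.43 ± 0.19 (adjusted p = 0.00821), and its adjusted p was 0.0598, 0.0657, 0.0699 and 0.0777 without Pcgf3KO replicate 1, Pcgf3KO replicate 2, Pcgf5KO replicate 1 and Pcgf5KO replicate 2.

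TGF-beta, Nodal and BMP signalling had 6 of 25 positive (among them Bmp1, Lefty2, Smad7, Bmp7 and Bmp8b) and 1 negative (Nodal), with a median of 0.31. Endoderm genes had 4 of 15 positive (Dab2, Col4a2, Amn and Col4a1), 0 negative and a median of 0.48; the collagens among them are also made by other cells. The feeder fibroblast list had 9 of 24 positive (Col5a1, Fn1, Col6a1, Col6a2, Pdgfrb, Fbln2, Vim, Mmp2 and Thy1) and 2 negative (Acta2 and S100a6), with a median of 0.88. Its median changes against WT were -0.43 in DKO, -0.75 in Pcgf3KO and -0.43 in Pcgf5KO, so feeder markers moved beside the matrix genes above.

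The Polycomb lists stand beside the same shares of 1.77% positive and 2.02% negative over all genes, and nothing is drawn from counts this small. Of 47 Polycomb subunits, 0 were positive and 1 negative (Phf19, a PRC2 accessory protein), with a median of 0.01. Of 24 Polycomb-marked developmental regulators, 1 was positive (Tbx20) and 1 negative (Foxd3), although their median interaction was 1.30. These genes had low levels, and their median changes against WT were -0.91 in DKO, -0.89 in Pcgf3KO and -0.72 in Pcgf5KO. Of 5 Hox genes tested of 34, 0 were called (median 1.44), and no 2-cell-like gene passed the filter on low counts. The primed epiblast list had 0 positive and 3 negative of 15 (Etv5 and Foxd3 among them), primitive streak and mesoderm 2 and 0 of 15 (Hand1 and Tbx20), neuroectoderm 3 and 0 of 13 (Nes, Olig2 and Map2), and trophectoderm 1 and 1 of 14 (Hand1 and Ascl2). Germline and meiosis had 1 and 3 of 25 (Tex15 positive, Zglp1, Ddx4 and Tex14 negative), imprinted genes 3 and 1 of 40 (Igf2, Peg10 and Igf2r positive, Ascl2 negative), and desmosome and simple epithelium 1 and 2 of 22 (Dsp positive, Jup and Anxa2 negative). Cholesterol synthesis had 3 and 0 of 24 (Lss, Stard4 and Idi1), the amino acid and ER stress response 2 and 1 of 26 (Ddit3 and Atf3 positive, Xbp1 negative), the interferon response 0 and 1 of 19 (Ddx58), Wnt targets 0 and 1 of 15 (Ascl2), and proliferation 0 and 0 of 25. Xbp1, a transcription factor of the unfolded protein response, had 80.9 and 95.5 CPM in DKO, 143 and 137 CPM in Pcgf3KO, 127 and 136 CPM in Pcgf5KO and 60.7 CPM in WT. The DKO lay between WT and all single knockout libraries, with an interaction of -1.78 ± 0.16 (adjusted p = 0.00128).

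**Figure D4:**
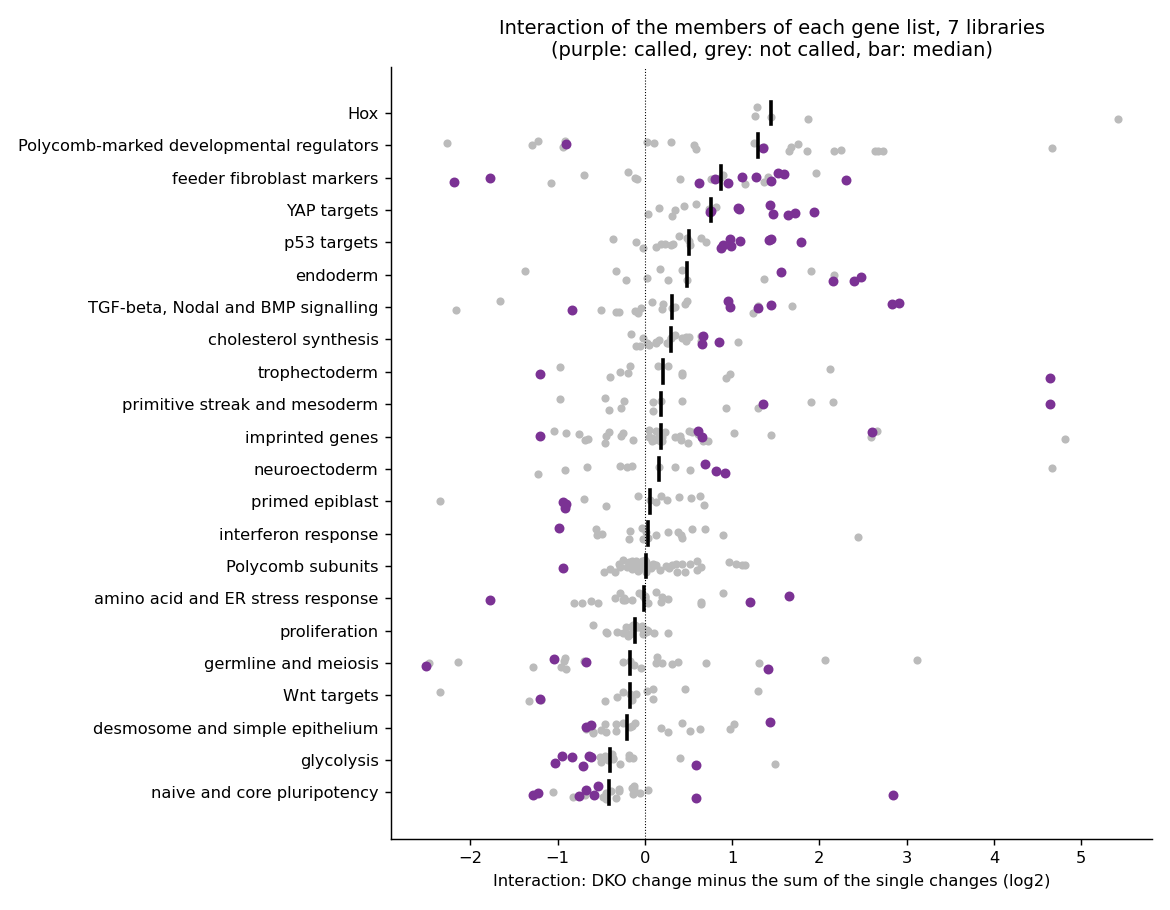
Interaction (log2, horizontal axis) of each tested member of the gene lists in the 7-library test, with called members in purple, the others in grey and the list median as a black bar. YAP targets (median 0.76) and p53 targets (0.51) have their called members right of 0, and naive and core pluripotency (median -0.41) and glycolysis (-0.40) have most of theirs left of 0.

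The calls depended on which library was left out. The 8-library test called 187 genes with all libraries, but 353 without DKO replicate 1 and 791 without DKO replicate 2. It called 47 without either Pcgf3KO library, 36 and 35 without Pcgf5KO replicate 1 or 2, and 81 and 57 without WT replicate 1 or 2. The 7-library test called 594 genes with all its libraries, 3735 and 5714 without DKO replicate 1 or 2, and 50, 47, 35 and 45 without Pcgf3KO replicate 1, Pcgf3KO replicate 2, Pcgf5KO replicate 1 or Pcgf5KO replicate 2. Genes of the 8-library test had 8 such fits. Those of the 7-library test, from Dnmt3l to Xbp1 in the list below, had 6, as their only WT library could not be left out. These fits reuse the same libraries, and the direction of the called genes was the same in every one of them. Of the 94 named genes with a called interaction, 35 were called in every one, among them Ptprtos, Lemd1, D1Pas1, Bmp1, Csf1, Cald1, Etv5, Dnmt3l, Gstp1, Gstp2, Lefty2, Hmga2, Pcdh19, Dcaf12l1, Krt42, Plk2, Pmaip1 and Xbp1.

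**Figure D5:**
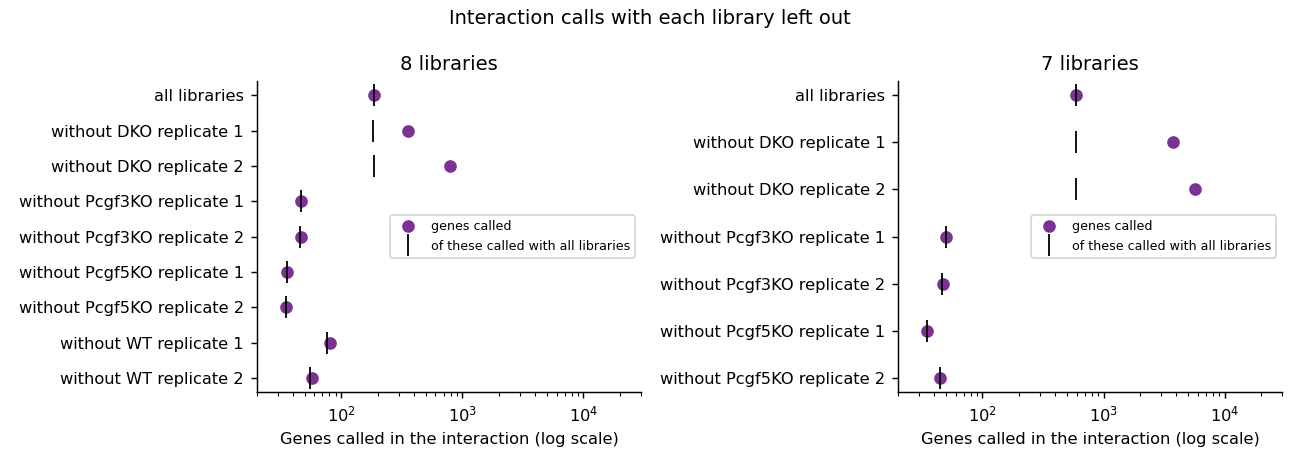
Number of genes called in the interaction (purple, log axis) with all libraries and with each library left out, for the 8-library (left) and 7-library test (right); the black tick is the number of these that were also called with all libraries. Without a DKO library the counts are above those with all libraries (187 and 594), and without a library of another group they are below.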

How the data were processed

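The authors deposited 1 table for each library, with raw counts by Ensembl gene as whole numbers, per the file headers. Per the submitters' processing notes, which assign no roles, TopHat2 2.0.12, Cufflinks 2.2.1, HTSeq 0.6.0 and mm10 were used; the annotation, filters and strand setting were not given in the sources used here. RNA was poly-A selected and made into libraries with the NEBNext Ultra kit, per the labels' protocols. From the counts, interactions and pairwise contrasts were computed with edgeR 4.0.16 in R 4.3.3 (quasi-likelihood test, group as the only term, TMM, filterByExpr). All groups shared 1 estimate of the spread, with 4 residual degrees of freedom for 8 libraries and 3 for 7. The filter kept 99.9% of the counts in each test. Calls needed an adjusted p no higher than 0.05, by the Benjamini-Hochberg method over every gene in that test. The ± of a log2 value is its standard error.

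Identifiers were matched to symbols in GENCODE M21 for 46488 of 47069 genes; 0 rows named no gene. The additive level is the mean Pcgf3KO level times the mean Pcgf5KO level over that of WT. Named genes were the 10 highest and 10 lowest called interactions in each test at a mean log2 CPM no lower than 2, without predicted genes, the 6 with the smallest p in each class, up to 3 members of each list by interaction p, the Pcgf family and 4 abundant feeder markers. Some genes that the rule gives are left out of the text, but counts include them. Genes named only as called members of a list fall outside this rule and were chosen after their values were seen. Members and lists were chosen with earlier results of these data known. The code was tested on simulated data. Alternatives were DESeq2 1.42.0, its size factors, no filter, a mean count of at least 50, an adjusted p of at most 0.1, class tolerances of 0.3 and 1, a replicate block, and each library left out. Promoter windows for 2 genes, matched by symbol, came from RefSeq.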

Additional observations from a re-analysis of the deposited data

Results flagged for a closer look

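The test of the interaction called it positive in 95 genes and negative in 92 with 8 libraries, and in 278 and 316 with 7. In these the fitted effect of losing one gene differed with the presence of the other. A gene in which WT differed from all edited cells could be called as well, and with 7 libraries WT was replicate 2 alone. The test asks whether the effect of Pcgf3 loss is the same in Pcgf5KO cells as in WT cells, and equally for Pcgf5 loss. Loss of Pcgf5 had called effects in both Pcgf3KO and WT cells in 50 genes (7 libraries), opposite in 26 and the same in 24. Loss of Pcgf3 had called effects in both Pcgf5KO and WT cells in 52 genes, opposite in 35 and the same in 17. With 8 libraries 6 of 8 and 9 of 12 such genes were opposite. The share of opposite effects over all genes tested was not taken, so these counts are a description. Groups of 2 libraries are too small for the check of single libraries that stand apart.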

How the results depend on the processing

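Every called interaction kept its direction in every alternative that included the gene. Over 1392 values of named genes, 250 lost the call and 66 gained it. The sign of a named gene changed in Bmi1 (-0.04 to 0.32) and Pcgf1 (-0.08 to 0.05), neither of which was called under any setting.

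Without the filter on low counts the interaction was positive in 213 and negative in 205 genes with 8 libraries, and in 942 and 962 with 7. An adjusted p of at most 0.1 gave 191 and 185, and 665 and 758. DKO, Pcgf3KO and Pcgf5KO against WT then gave 373, 279 and 354 genes without the filter and 387, 256 and 415 at 0.1 with 8 libraries, and 1474, 1105 and 1222, and 925, 774 and 868, with 7. DKO against Pcgf3KO gave 218 without the filter, 64 at 0.1, 61 with DESeq2 and 1 at a mean count of at least 50 with 8 libraries, and 1355 and 647 without the filter and at 0.1 with 7. DKO against Pcgf5KO gave 376, 353, 215 and 21 under the same 4 settings with 8 libraries, and 2312, 1737 and 804 without the filter, at 0.1 and with DESeq2 with 7. The cause was not tested.

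Replicate numbers were not treated as pairs in the main tests. Deviations of same-numbered libraries correlated at -0.06 to 0.20, highest between DKO and WT. Whether same-numbered libraries share an effect was not tested further. With the replicate number as a block, the interaction was positive in 165 and negative in 155 genes with 8 libraries and in 599 and 706 with 7. DKO against Pcgf3KO gave 65 and 499, and DKO against Pcgf5KO 265 and 1532, under this block.

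A class tolerance of 0.3 left 6 and 8 genes back at WT and put 74 and 181 beyond both singles (8 and 7 libraries). A tolerance of 1 gave 28 and 100 back at WT, 10 and 21 beyond both, 81 and 257 matching a single, and 440 in no class with 7.

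Leaving out 1 library gave these ranges, in each case with 8 and then 7 libraries: positive interactions 13 to 381 and 13 to 2692, negative 22 to 410 and 22 to 3022; DKO against WT 58 to 754 and 168 to 5394, Pcgf3KO against WT 35 to 438 and 46 to 3162, Pcgf5KO against WT 30 to 631 and 40 to 4126. DKO against Pcgf3KO ranged over 1 to 654 and 7 to 5582, and DKO against Pcgf5KO over 0 to 812 and 3 to 6593. Genes matching a single ranged over 61 to 235 and 156 to 1673, beyond both 9 to 212 and 39 to 1382, back at WT 2 to 29 and 5 to 160, and in no class 24 to 718 and 23 to 4708. The highest counts came without a DKO library, the group with the widest spread. The 7-library test without WT replicate 2 was not possible, since no WT library would remain. With 2 libraries per group, effects of clone and culture cannot be told apart from genotype.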

Other observations

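Chromosome X held 13 of the 95 genes with a positive interaction (13.7%) and 3 of the 92 with a negative one (3.26%), beside 4% of the genes tested with 8 libraries. With 7 libraries it held 24 of 278 (8.63%) and 8 of 316 (2.53%), beside 3.62% of the genes tested. Pcdh19, Dcaf12l1, Clcn5, Nrk, Itm2a and Rhox5 are among them. Clcn5, a chloride and proton exchanger gene, had 52.5 and 49.7 CPM in DKO, 40.9 and 41.6 CPM in Pcgf3KO, 34.8 and 37.2 CPM in Pcgf5KO and 73.6 CPM in WT, with an interaction of 1.34 ± 0.14 (adjusted p = 0.00292). Its groups did not overlap. Nrk, a kinase gene known from the placenta, had 86.1 and 84.7 shared-gene CPM in DKO, 102 and 89.7 in Pcgf3KO, 60.4 and 69.2 in Pcgf5KO, beside 177 and 215 in WT, with an interaction of 1.44 ± 0.20 (adjusted p = 0.00284). The knockouts lay below WT in every library. The share on chromosome X was noticed in these data and was not tested.

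Another gene called in the same direction lay within 100 kb for 99 of the 594 genes called with 7 libraries (16.7%) and 10 of the 187 with 8 (5.35%). Of the genes tested but not called, 9.49% with 7 libraries and 4.06% with 8 had a called gene within that distance whose interaction had the sign of theirs. The difference between these shares was not tested. Among such groups were Col4a1 with Col4a2, Gstp1 with Gstp2, Col6a1 with Col6a2, Jup with Krt17 and Krt42, and Dppa5a with Ooep.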
